A study of Homo sapiens with 23 samples.

Results

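Genes of protein folding in the endoplasmic reticulum (ER) and of the unfolded protein response were followed in PC-3 cells in which doxycycline induced PARG, and the response was set side by side in 2 clones, I4 and H6. The members were 36 genes picked by symbol: ER chaperones and their cofactors, disulfide isomerases, secreted stress proteins, stress sensors and their transcription factors, and the machinery of ER-associated degradation, translocation and export. All 36 were found among the 21463 rows of the authors' deposited table. In 35 of them the mean level was at least 1 RPKM (read density over a gene's exons, corrected for depth, a unit read from the values since the file names none), as it was in 10756 rows in all. DERL3, a derlin of the degradation channel, lay between 0.00406 and 0.0217 RPKM as the higher group mean in the authors' deposited table, and its folds are not described. Of DERL3's exon bases, 77.0% also lie under exons of SMARCB1 on the opposite strand.

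PC-3 is an established human line from a prostate cancer. Every group carried the same lentiviral construct, which places the cDNA of PARG, the hydrolase of poly(ADP-ribose) chains, with a cleavable mClover3 fluorescent protein behind the TetOne doxycycline-inducible promoter. Clones I4 and H6 each grew from a single transduced cell, and wells were kept for 72 h without doxycycline or with 500 ng/ml. Passage 5 cells were used in experiment N, whose library kit did not mark strand, and passage 7 cells in experiment B, whose kit did. With 3 wells in each group, and 2 for untreated H6 in experiment B, there were 23 libraries in 8 groups. Each clone is 1 line, so the q-values can reflect only the spread between wells of that line. A difference between I4 and H6 is a difference between 2 lines, and with no construct-free cells among the groups, PARG and doxycycline itself cannot be told apart.

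The authors' deposited table gives, for each comparison of doxycycline with no doxycycline, the higher of the group means, a signed fold and a q-value (an adjusted p). It holds no value per library, so no spread over wells is printed beside a level. The lower group mean was computed here as the higher mean divided by the fold. Depth, read from the steps that single reads leave in low values, was about 33.5 to 43.0 M reads per library in experiment N and 19.2 to 26.3 M in experiment B. PARG itself went from 21.6 to 29.3 RPKM in I4 and from 26.1 to 56.2 in H6 in experiment N, and from 26.9 to 37.7 and from 27.4 to 54.6 in experiment B, in the authors' deposited table. These are rises of 1.35-fold and 1.40-fold in I4 and of 2.15-fold and 1.99-fold in H6. Whether the larger rise of PARG in H6 has a part in any clone difference below was not tested. Of the line's markers, the keratin KRT18 lay at 101 to 127 RPKM and vimentin (VIM) at 287 to 416, while CDH1 lay at 0.332 to 0.394 and FOLH1 at 0.420 to 1.98, in the authors' deposited table. Of markers of other cell types, the blood marker PTPRC was at most 0.0515, the endothelial PECAM1 lay at 0.719 to 1.34 and the fibroblast COL1A1 at 6.23 to 17.7, in the authors' deposited table. The other fibroblast markers were far below COL1A1, with COL3A1 at most 0.188, PDGFRB at most 0.0416 and LUM at most 0.634. Likewise the endothelial VWF and CDH5 were at most 0.0179 and 0.0377, and the blood markers CD14 and CD3E at most 0.200 and 0.0169. In bulk RNA, fewer cells of a state and less RNA per cell cannot be told apart.

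The unfolded protein response is the set of pathways by which a cell adjusts its folding capacity to the load of unfolded protein in the ER. The chaperone HSPA5 (BiP) holds the sensors ERN1 (IRE1), EIF2AK3 (PERK) and ATF6 inactive, and unfolded clients draw it away. ERN1 then splices the mRNA of XBP1, EIF2AK3 slows translation, and ATF6 is cut in the Golgi by MBTPS1, after which XBP1 and ATF6 switch on chaperone and degradation genes through short promoter elements. Secretory epithelia, the prostate's among them, rely on this system for their load of exported protein.

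The best known of these elements is the ER stress response element (ERSE). Promoters were taken from RefSeq (GRCh38.p14), 250 bases before to 50 after each start site, and 32 of the 36 genes matched. PDIA3, SEC24D, DERL1 and DERL3 did not. The ERSE, CCAAT and CCACG with any 9 bases between them, was sought on both strands. It stood in 27 of all 35116 promoters (0.0769%). Counted by gene symbol, as the members are, it stood in 25 of 27305 (0.0916%) and in 7 of the 32 members (21.9%). Those 7 are shown as the stretch that matched, read 5′ to 3′ on the strand of the match, with the fixed letters in capitals.
HSPA5: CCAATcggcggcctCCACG
HSP90B1: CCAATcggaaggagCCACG
PDIA6: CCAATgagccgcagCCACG
CALR: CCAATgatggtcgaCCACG
CANX: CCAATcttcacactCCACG
CRELD2: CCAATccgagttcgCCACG
XBP1: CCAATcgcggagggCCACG
The match in HSPA5 lies at chr9:125241391-125241409 on the gene's own strand, and the one shown for HSP90B1 at chr12:103930216-103930234. HSP90B1 holds another on the opposite strand, at chr12:103930321-103930339. The ERSE was first described in chaperone promoters, HSPA5's among them, so its presence here is background and not a result. The related ERSE-II (ATTGG and CCACG with any 1 base between them) stood in HYOU1, SDF2L1 and HERPUD1. That is 9.38% of the matched members, against 0.0696% of gene symbols and 19 of all 35116 promoters (0.0541%). The UPRE core TGACGTGG stood in HYOU1 and TXNDC5 (6.25% of the matched members, 0.927% of gene symbols, 0.729% of all promoters). In HYOU1 it overlaps one of the gene's 2 ERSE-II matches. The cyclic AMP element TGACGTCA stood in CREB3L2 (3.13% of the matched members, 2.25% of gene symbols, 1.85% of all promoters).

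Across the 36 genes, 3 members were called in every comparison, AGR2 and CREB3L1 as higher with doxycycline and ERN1 as lower, and the ER chaperones HSPA5 and HSP90B1 rose in H6 in both experiments. At a q under 0.05 in the authors' deposited table, 10 members were called in I4 in experiment N, where 15.7% of all genes tested were called. 8 of the 10 fell (8.53% of all genes did) and 2 rose (7.18%). In H6 in experiment N 10 members were also called, against 13.6% of all genes, but 7 rose (6.57%) and 3 fell (7.07%). Experiment B had 6 called members in I4, 3 higher (7.46%) and 3 lower (6.59%), against 14% of all genes, a share near that background. It had 6 in H6, 5 higher (3.63%) and 1 lower (3.93%), against 7.56% of all genes. Weakly expressed genes are rarely called, and among genes of at least 1 RPKM the backgrounds were 22.9% and 20.3% for I4 and H6 in experiment N and 19.1% and 10.3% in experiment B. Of the 35 members at that level, the calls are 28.6% in each clone in experiment N and 17.1% in each clone in experiment B. By direction, of the 10756 genes at that level 1115 rose and 1352 fell in I4 in experiment N, and 1051 and 1134 in H6. In experiment B the counts were 1088 and 970 in I4 and 530 and 575 in H6. These are larger shares than the shares by direction over all genes.

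**Figure D1:**
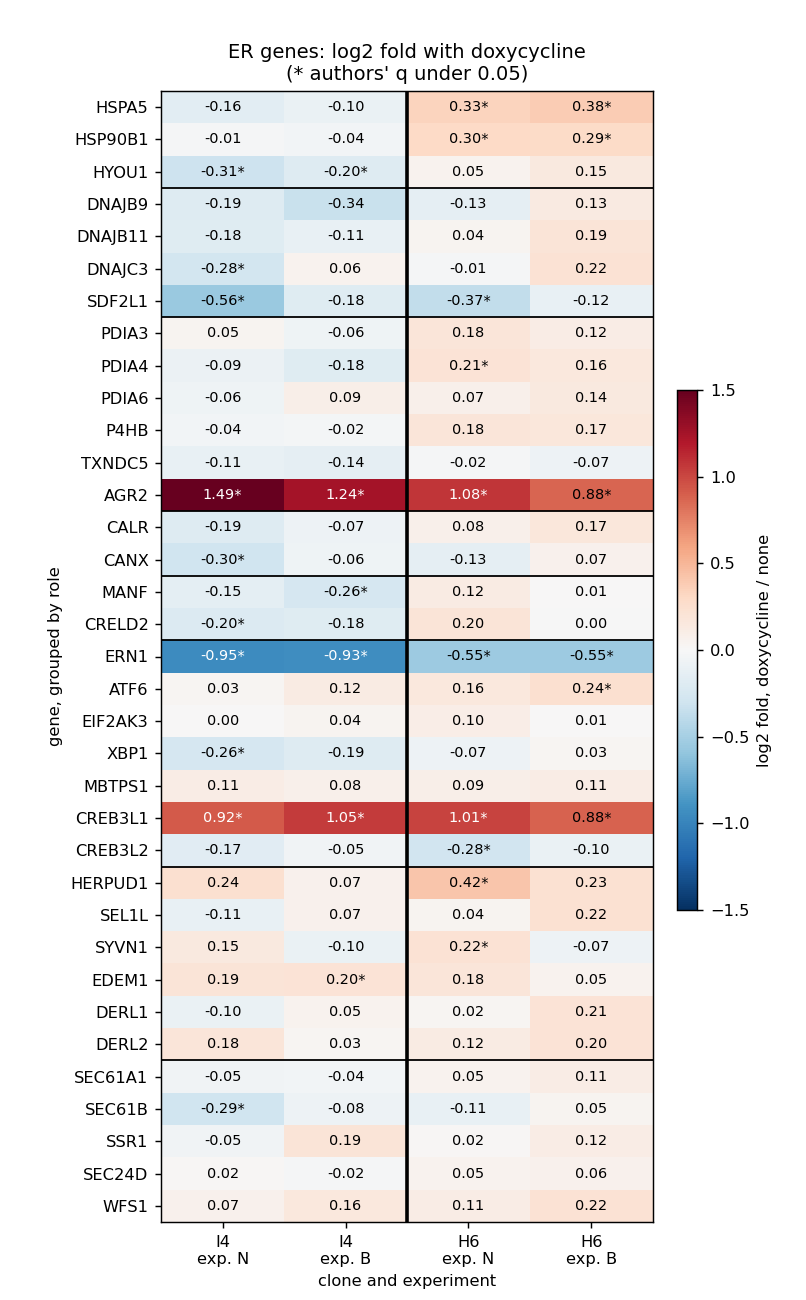
Log2 fold with doxycycline for the 35 genes of at least 1 RPKM (rows, grouped by role) in each clone and experiment (columns). Colour and number give the log2 fold, red for higher with doxycycline, and an asterisk marks a q-value under 0.05 in the authors' deposited table. AGR2 and CREB3L1 are red and ERN1 is blue in all 4 columns, while HSPA5 and HSP90B1 are red in the H6 columns only.

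Most members lay below 0 in I4 and above 0 in H6. The median log2 fold of the 35 genes was -0.09 in I4 and 0.08 in H6 in experiment N, and -0.04 and 0.13 in experiment B, while the medians over all genes at that level were -0.01 to 0.01. In experiment N 12 of the 35 were above 0 in I4 and 26 in H6. The counts in experiment B were 14 and 29. The log2 fold was greater in H6 than in I4 for 30 of 35 genes in experiment N (85.7%, against 51.2% of all genes) and for 29 in experiment B (82.9%, against 51.9%). It was greater in H6 in both experiments for 27 of 35, or 77.1%, against 38.1% of all genes. The median difference, H6 minus I4, was 0.14 and 0.16 on the log2 scale, against 0.004 and 0.006 for all genes. These counts carry no test, because the genes share wells.

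A test of the difference itself was made for each gene. The standard error of each log2 fold was read back from the authors' q-value, the variances of the clones were added, and p-values were adjusted by the Benjamini-Hochberg method over all genes tested. By this Wald test 2 of the 36 genes differed between the clones in experiment N, HSPA5 and CRELD2, against 0.964% of all genes, and 1 in experiment B, HSPA5, against 0.998%. HSPA5 was the 1 member called in both experiments, as were 0.631% of all genes. All of these had the larger log2 fold in H6. The standard errors read back are approximate, and with errors taken from genes of like level the adjusted p-values of HSPA5 are 0.315 in experiment N and 0.0304 in experiment B, so that its call and that of CRELD2 in experiment N are lost. No exact test over wells can be made from a table without values per library.

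**Figure D2:**
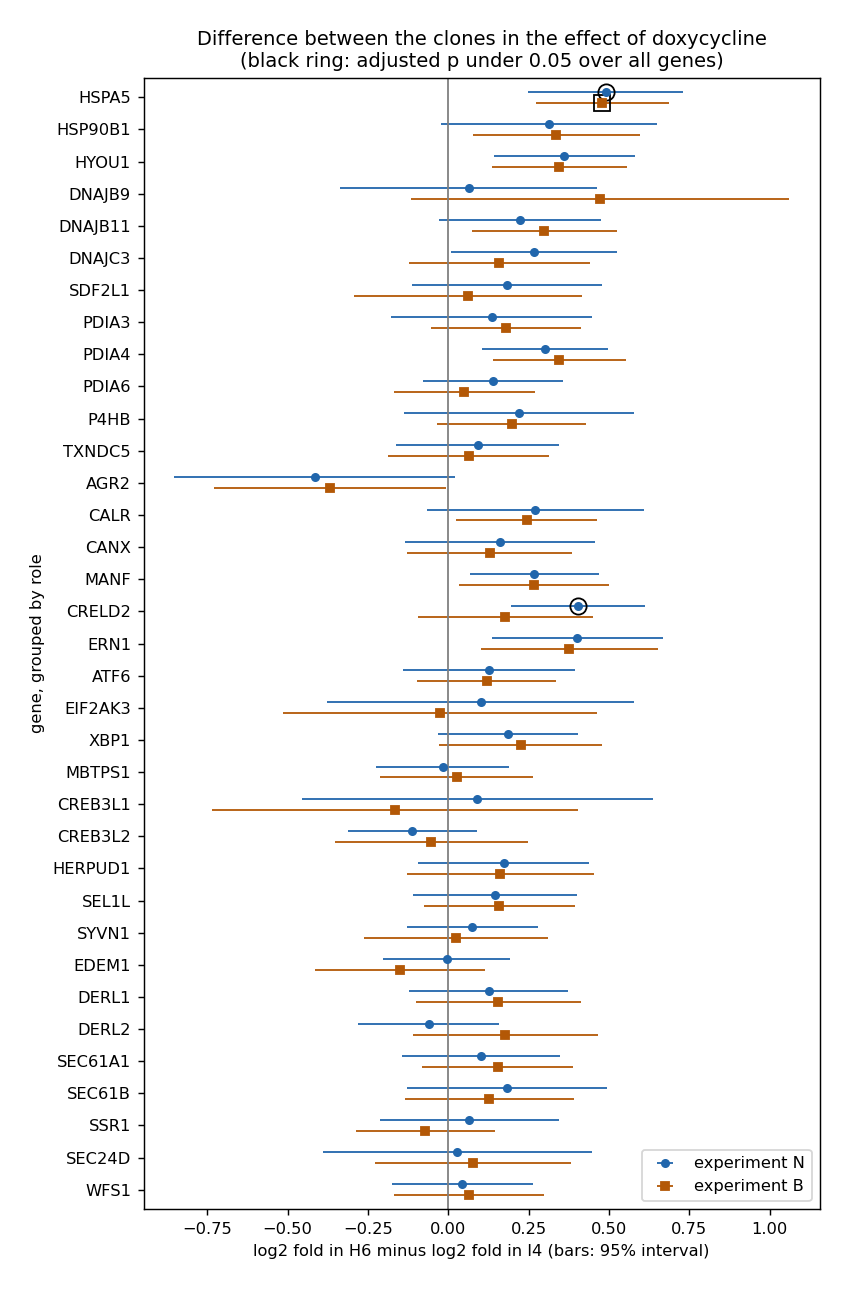
Difference of the doxycycline effect between clones (log2 fold in H6 minus log2 fold in I4, horizontal axis) for each gene in experiments N and B. Points are the differences and bars their 95% intervals from the standard errors read back. HSPA5 lies at 0.49 and 0.48, and AGR2 lies below 0 in both experiments.

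Chaperones of the Hsp70, Hsp90 and Hsp110 families had the largest median difference between clones of the 8 roles, 0.36 in experiment N and 0.35 in experiment B (H6 minus I4, log2). HSPA5, the Hsp70 of the ER lumen, lay at 105 RPKM without and 94.4 with doxycycline in I4 and at 148 and 187 in H6 in experiment N, in the authors' deposited table. In experiment B I4 lay at 129.7 without and 121 with doxycycline and H6 at 180.2 and 234, in the authors' deposited table. HSPA5 was thus highest in treated H6 and lowest in treated I4 in both experiments. It rose 1.26-fold (q = 0.0114) and 1.30-fold (q = 3.13e-05) in H6 in the authors' deposited table, and in I4 its log2 fold was -0.16 (q = 0.120) and -0.10 (q = 0.475). The difference, H6 minus I4, was 0.49 (SE 0.12) in experiment N and 0.48 (SE 0.11) in experiment B, with adjusted p-values of 0.0114 and 0.00167 by the Wald test over all genes. The gene lies at chr9:125234853-125241330 on the minus strand (GRCh38, GENCODE 29). Its 250 bases before the start site (chr9:125241344-125241593) hold the ERSE in capitals close to the start site, and those of HSP90B1 (chr12:103930160-103930409, plus strand) hold one on each strand.
HSPA5: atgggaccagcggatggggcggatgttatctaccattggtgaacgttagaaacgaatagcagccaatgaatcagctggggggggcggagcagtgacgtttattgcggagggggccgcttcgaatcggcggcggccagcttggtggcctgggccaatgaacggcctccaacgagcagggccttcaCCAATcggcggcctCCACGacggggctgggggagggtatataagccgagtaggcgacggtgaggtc
HSP90B1: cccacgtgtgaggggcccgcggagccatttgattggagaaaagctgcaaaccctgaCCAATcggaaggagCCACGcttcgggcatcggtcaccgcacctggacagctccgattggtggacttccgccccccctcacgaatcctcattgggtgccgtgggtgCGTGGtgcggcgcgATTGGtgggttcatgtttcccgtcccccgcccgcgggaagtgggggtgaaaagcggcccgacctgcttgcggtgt
HSP90B1 (GRP94), the Hsp90 of the ER, changed likewise in H6. In H6 it went from 253 to 312 RPKM in experiment N and from 348 to 427 in experiment B, rises of 1.23-fold (q = 0.0270) and 1.22-fold (q = 0.00285) in the authors' deposited table. In I4 it lay at 220 and 218 RPKM in experiment N and at 333 and 323 in experiment B, with q-values of 1.00 and 0.979 in the authors' deposited table. The clone difference was 0.31 (95% interval -0.02 to 0.65) and 0.34 (0.08 to 0.60) and was not called, with adjusted p-values of 0.969 and 0.390 by the Wald test. HYOU1, the Hsp110 that exchanges nucleotide on HSPA5, was called on the other side. It fell in I4 from 48.4 to 39.1 RPKM in experiment N (q = 0.000106) and from 47.6 to 41.5 in experiment B (q = 0.0362), in the authors' deposited table. In H6 it lay at 52.6 and 54.5 RPKM, and at 54.0 and 59.8, with q-values of 0.862 and 0.360 in the authors' deposited table. Its clone difference of 0.36 and 0.35 had adjusted p-values of 0.101 and 0.0902 by the Wald test.

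The 4 cofactors of HSPA5 were called in 3 of 16 pairs of gene and comparison (18.8%), each time as lower and in experiment N. In either direction 7.56% to 15.7% of all genes were called in a comparison, and 10.3% to 22.9% of those of at least 1 RPKM. As lower, 3.93% to 8.53% of all genes were called. SDF2L1, which holds J-domain proteins in complex with HSPA5, fell in both clones in experiment N, from 38.6 to 26.2 RPKM in I4 (q = 5.87e-06) and from 48.0 to 37.0 in H6 (q = 0.00576), in the authors' deposited table. In experiment B, where its levels lay between 8.73 and 14.2 RPKM, the log2 folds were -0.18 and -0.12 and neither was called. Untreated SDF2L1 was 3.91-fold (I4) and 3.38-fold (H6) higher in experiment N than in experiment B, and the experiments differ in kit, strand protocol and passage. DNAJC3, a J-domain protein that also inhibits EIF2AK3, fell from 11.2 to 9.23 RPKM in I4 in experiment N (q = 0.00127) in the authors' deposited table, and was not called in the other 3 comparisons, with log2 folds of -0.01 to 0.22. DNAJB11, a J-domain cofactor, and DNAJB9, a J-domain protein that keeps ERN1 bound to HSPA5, were called in none. For all 4 cofactors the log2 fold was greater in H6 than in I4 in both experiments, by 0.06 to 0.47.

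Among disulfide isomerases, which make and rearrange disulfide bonds in client proteins, AGR2 was the 1 member called in every comparison. AGR2, an isomerase needed for mucin secretion, went from 5.35 to 15.1 RPKM in I4 and from 8.78 to 18.5 in H6 in experiment N, in the authors' deposited table. In experiment B it went from 8.89 to 21.1 in I4 and from 13.7 to 25.1 in H6, in the authors' deposited table. The rise was 2.81-fold and 2.37-fold in I4 and 2.11-fold and 1.84-fold in H6, with the q-value listed as 0 in all 4 comparisons. H6 had the higher level and I4 the larger fold in each experiment. The difference, H6 minus I4, of -0.42 (95% interval -0.85 to 0.02) and -0.37 (-0.73 to -0.01) had adjusted p-values of 0.944 and 0.830 by the Wald test, where a q-value listed as 0 gives only an upper bound of the standard error. PDIA4 rose in H6 in experiment N, from 135 to 156 RPKM (q = 0.0196), in the authors' deposited table. In H6 in experiment B its log2 fold was 0.16 (q = 0.255), and in I4 it was -0.09 and -0.18. PDIA3, PDIA6, P4HB and TXNDC5 were called in no comparison, and their log2 folds ran from -0.14 to 0.18. P4HB, which also serves as a subunit of collagen prolyl hydroxylase, lay at 334 to 372 RPKM in I4 and at 539.7 to 621 in H6. TXNDC5 shares 60.6% of its exon bases with a readthrough gene of mean level 1.18 RPKM. On the opposite strand, PDIA6 shares 25.2% with ATP6V1C2 (0.154 RPKM) and PDIA3 14.8% with ELL3 (1.58 RPKM), against mean levels of 88.2, 93.8 and 185 RPKM for TXNDC5, PDIA6 and PDIA3.

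The lectin chaperones and the secreted stress proteins shared the chaperones' order of clones. CALR, the luminal calcium-binding lectin chaperone, was the most abundant member at 778 to 1120.1 RPKM and was called in no comparison. CANX, its membrane-bound relative, fell in I4 in experiment N from 132 to 107 RPKM (q = 0.0294) in the authors' deposited table and had log2 folds of -0.13 to 0.07 elsewhere. MANF, a cofactor of HSPA5 that is also secreted, fell in I4 in experiment B from 88.3 to 73.9 RPKM (q = 0.00432) in the authors' deposited table. In the other comparisons the log2 fold of MANF was -0.15 (I4, experiment N), 0.12 and 0.01 (H6). CRELD2, a secreted protein of the stress response, fell in I4 in experiment N from 17.8 to 15.4 RPKM (q = 0.0495) in the authors' deposited table. In H6 it lay at 20.9 and 24.0 RPKM with a q-value of 0.0524. The clone difference of CRELD2 was 0.40 (SE 0.11) in experiment N and 0.18 (SE 0.14) in experiment B, with adjusted p-values of 0.0216 and 1.00 by the Wald test.

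**Figure D3:**
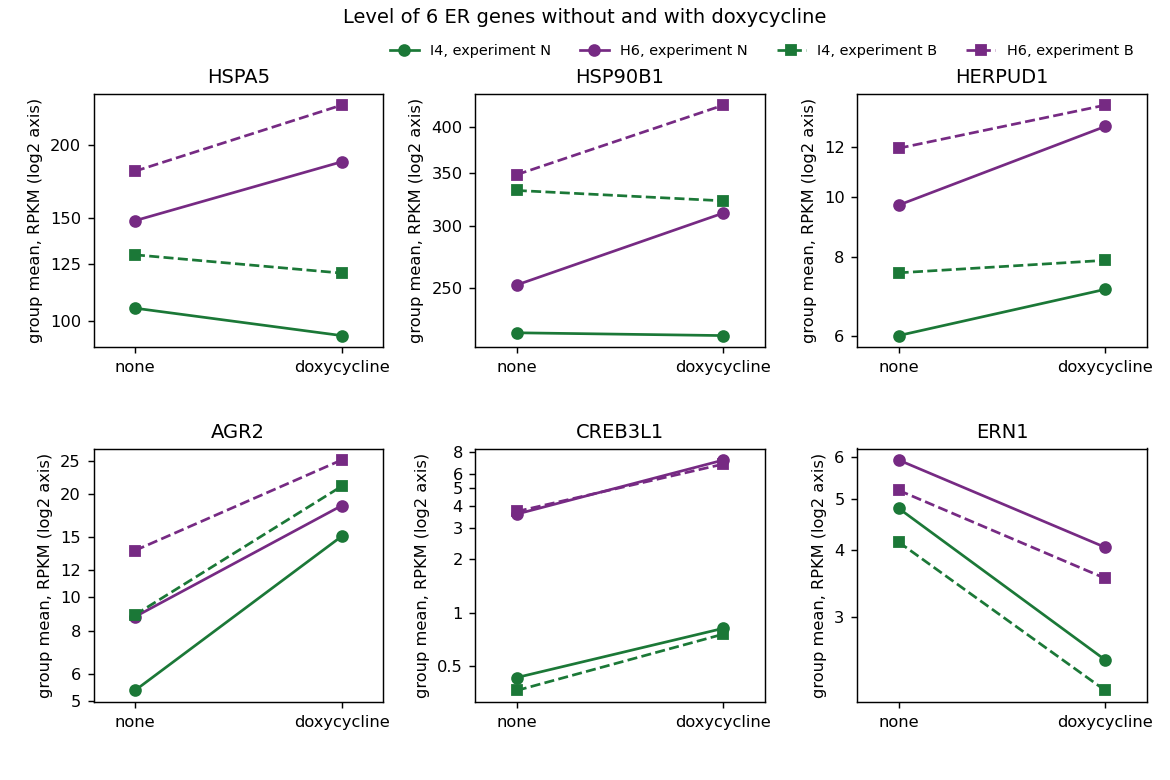
Group mean level (RPKM, log2 axis) of 6 genes without and with doxycycline in clones I4 (green) and H6 (purple), experiments N (circles, solid lines) and B (squares, dashed lines). The lower mean of each pair is the higher mean divided by the fold, and no spread over wells is given. HSPA5 and HSP90B1 slope up in H6 and slightly down in I4, AGR2 and CREB3L1 slope up and ERN1 slopes down in every line.

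Of the 3 stress sensors, ERN1 was the one that moved in every comparison. It went from 4.80 to 2.49 RPKM in I4 and from 5.92 to 4.05 in H6 in experiment N, in the authors' deposited table. In experiment B it went from 4.15 to 2.18 RPKM in I4 and from 5.19 to 3.55 in H6, in the authors' deposited table. ERN1 was lower with doxycycline by 1.93-fold and 1.90-fold in I4 (q listed as 0) and by 1.46-fold in both experiments in H6 (q = 3.46e-12 and 1.28e-08). The treated level was the lowest in I4 and the untreated level the highest in H6. The clone difference of 0.40 (95% interval 0.14 to 0.67) and 0.38 (0.10 to 0.65) was not called, with adjusted p-values of 0.175 and 0.302 by the Wald test. For ERN1 in I4, the q-value listed as 0 gives only an upper bound of the standard error. ATF6 rose in H6 in experiment B from 16.3 to 19.2 RPKM (q = 0.0425) in the authors' deposited table, with log2 folds of 0.03 to 0.16 elsewhere. EIF2AK3 was called in no comparison, and its log2 folds ran from 0.00 to 0.10 at levels of 2.37 to 3.14 RPKM.

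Among the transcription factors, CREB3L1 was the one called in every comparison. XBP1 fell in I4 in experiment N from 20.7 to 17.3 RPKM (q = 0.00549) in the authors' deposited table, and was not called in I4 in experiment B (log2 fold -0.19) or in H6 (-0.07 and 0.03). The table gives 1 value per gene, so the spliced and unspliced forms of XBP1 that ERN1 sets are not separated. CREB3L1, a membrane-bound factor that is released by cleavage and drives collagen and secretory genes, rose in all 4. It went from 0.433 to 0.818 RPKM in I4 and from 3.58 to 7.20 in H6 in experiment N, in the authors' deposited table. In experiment B it went from 0.366 to 0.759 in I4 and from 3.70 to 6.83 in H6, in the authors' deposited table. The rise was 1.89-fold and 2.07-fold in I4 (q = 0.00292 and 0.00145) and 2.01-fold and 1.85-fold in H6 (q listed as 0). The levels lay further apart than the folds, since untreated H6 held 8.27-fold and 10.1-fold the level of untreated I4, a description with no test. The clone difference of its fold was 0.09 (95% interval -0.46 to 0.64) and -0.17 (-0.74 to 0.40), intervals that leave room for a difference of either sign. For CREB3L1 in H6, the q-value listed as 0 gives only an upper bound of the standard error. CREB3L2, its paralogue, fell in H6 in experiment N from 7.46 to 6.13 RPKM (q = 0.00127) in the authors' deposited table and had log2 folds of -0.17 to -0.05 elsewhere. MBTPS1, the protease that cuts ATF6, was called in none.

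AGR2, CREB3L1 and ERN1 were thus called in all 4 comparisons with 1 direction each, which is 3 of 36 members against 3.69% of all genes. For the members called higher in all 4 the background was 1.73%, and for the lower one 1.97%. In I4 4 members were called in both experiments (8.7% of all genes), these 3 and HYOU1. In H6 there were 5 (5.7% of all genes), these 3, HSPA5 and HSP90B1. The promoter bases before the RefSeq start sites of AGR2 (chr7:16805000-16805249, minus strand), CREB3L1 (chr11:46294909-46295158, plus strand) and ERN1 (chr17:64130145-64130394, minus strand) are shown. Each window lies inside its gene as GENCODE places it, at chr7:16791811-16833433, chr11:46277661-46321422 and chr17:64039142-64130819. The bases before the outermost GENCODE start of each gene are not shown. None of the 4 elements was matched in these windows, which says only that those letters are not there.
AGR2: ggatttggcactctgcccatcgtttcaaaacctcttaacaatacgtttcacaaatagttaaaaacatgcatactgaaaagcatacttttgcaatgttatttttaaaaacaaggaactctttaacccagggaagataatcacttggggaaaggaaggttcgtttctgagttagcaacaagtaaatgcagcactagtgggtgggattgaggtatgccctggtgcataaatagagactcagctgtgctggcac
CREB3L1: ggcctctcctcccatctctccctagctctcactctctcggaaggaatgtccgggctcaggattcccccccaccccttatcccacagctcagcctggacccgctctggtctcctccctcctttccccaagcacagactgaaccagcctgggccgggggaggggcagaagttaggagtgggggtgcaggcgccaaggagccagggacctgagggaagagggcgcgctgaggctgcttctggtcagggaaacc
ERN1: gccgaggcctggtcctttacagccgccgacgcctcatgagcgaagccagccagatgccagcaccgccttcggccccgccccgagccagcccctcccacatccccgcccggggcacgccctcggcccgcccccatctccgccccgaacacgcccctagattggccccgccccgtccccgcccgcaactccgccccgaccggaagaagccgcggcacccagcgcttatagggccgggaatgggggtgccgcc

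Degradation genes, whose products carry misfolded protein back to the cytosol, were called in 3 of 28 pairs of gene and comparison (10.7%), all higher. In either direction 7.56% to 15.7% of all genes were called in a comparison, and 10.3% to 22.9% of those of at least 1 RPKM. As higher, 3.63% to 7.46% of all genes were called. The 28 pairs include those of DERL3, whose folds are not described. HERPUD1, a membrane protein of the degradation complex, rose in H6 in experiment N from 9.69 to 12.9 RPKM (q = 8.61e-07) in the authors' deposited table. In H6 in experiment B it lay at 11.9 and 13.99 RPKM (q = 0.108), and in I4 its log2 fold was 0.24 and 0.07. HERPUD1 was higher with doxycycline in all 4 comparisons and passed the test in 1. Its promoter (chr16:56931892-56932141, plus strand) holds the ERSE-II in capitals.
HERPUD1: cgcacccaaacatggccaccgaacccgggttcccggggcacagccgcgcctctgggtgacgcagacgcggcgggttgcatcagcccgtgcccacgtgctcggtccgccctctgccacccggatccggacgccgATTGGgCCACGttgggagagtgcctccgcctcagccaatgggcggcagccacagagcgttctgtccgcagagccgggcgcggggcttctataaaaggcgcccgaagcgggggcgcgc
SYVN1, the ubiquitin ligase of the complex, rose in H6 in experiment N from 15.6 to 18.2 RPKM (q = 0.0212) in the authors' deposited table and had log2 folds of -0.10 to 0.15 elsewhere. SYVN1 shares 7.24% of its exon bases with FAU, a gene of the same strand at a mean level of 172 RPKM. It also shares 6.48% with MRPL49 on the opposite strand (36.8 RPKM), against a mean level of 15.3 RPKM for SYVN1. The kit of experiment N, where SYVN1 was called, did not mark strand. EDEM1, which takes mannose-trimmed clients out of the folding cycle, rose in I4 in experiment B from 12.8 to 14.7 RPKM (q = 0.0459) in the authors' deposited table, with log2 folds of 0.05 to 0.19 elsewhere. SEL1L, the partner of SYVN1, and the derlins DERL1 and DERL2 were called in no comparison. Their log2 folds in I4 ran from -0.11 to 0.18 and in H6 from 0.02 to 0.22.

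Of the 5 genes of translocation, export and the ER membrane, 1 was called in any comparison, which is 1 of 20 pairs of gene and comparison (5%). In either direction 7.56% to 15.7% of all genes were called in a comparison, and 10.3% to 22.9% of those of at least 1 RPKM. The 1 call was as lower, as were 3.93% to 8.53% of all genes. SEC61B, a small subunit of the translocation channel, fell in I4 in experiment N from 91.3 to 74.5 RPKM (q = 0.0383) in the authors' deposited table and had log2 folds of -0.11 to 0.05 elsewhere. SEC61A1, the channel itself, SSR1 of the translocon-associated complex, SEC24D of the COPII coat and WFS1, a membrane protein of ER calcium balance, were called in none. The log2 folds of these 4 ran from -0.05 to 0.22.

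**Figure D4:**
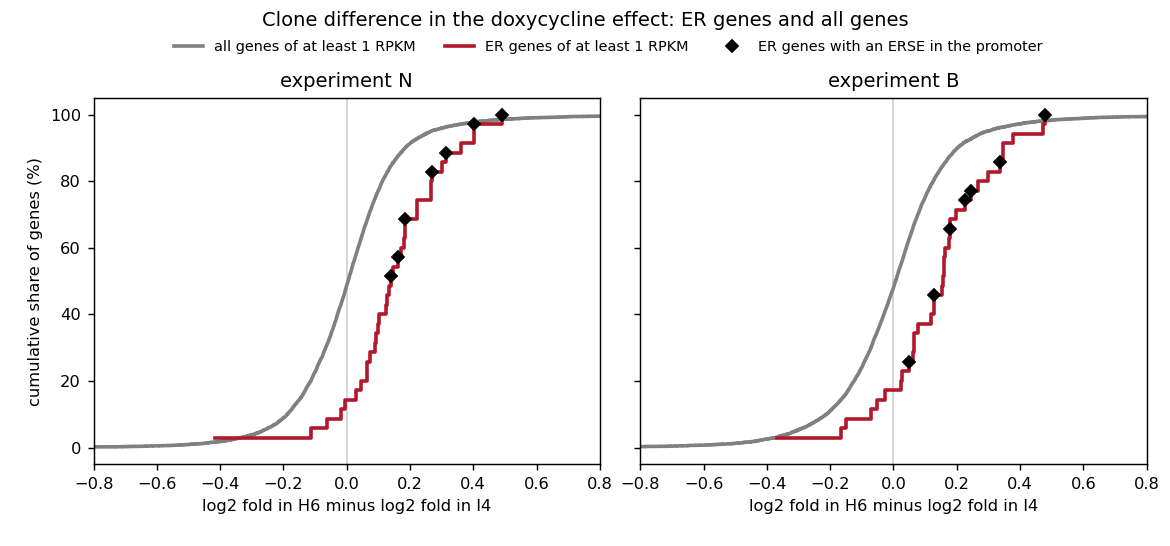
Cumulative share (%) of genes by the difference of the doxycycline effect between clones (log2 fold in H6 minus log2 fold in I4) in experiments N and B, for the 35 ER genes and all genes of at least 1 RPKM. Diamonds mark the 7 genes with an ERSE. The ER curve lies to the right of the curve of all genes, with medians of 0.14 and 0.16 against 0.004 and 0.006, and all 7 diamonds lie above 0.

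The 7 genes with an ERSE in the promoter all had the greater log2 fold in H6 in both experiments, with a median difference of 0.27 and 0.23. In the 25 other matched members of at least 1 RPKM the median was 0.10 and 0.13, and 20 and 19 of them were greater in H6. The 3 genes with an ERSE-II were also greater in H6 in both, with medians of 0.18 and 0.16. The ERSE was matched as well in 8 genes of at least 1 RPKM outside the members, and the log2 fold was greater in H6 for 6 of these in experiment N and for 7 in experiment B. Of all genes of at least 1 RPKM, 51.2% and 51.9% had that order, and 38.1% in both experiments. EIF2A, FICD, SERP1, SYNPO and ALG12 had it in both, while TMEM120A had it in experiment N alone and TRIM5 and ZNF17 in experiment B alone. I4 minus H6 was only -0.008 for FICD in experiment N and -0.01 for ALG12 in experiment B. ALG12 shares 168 exon bases with CRELD2 on the opposite strand, and whether their ERSE is the same match was not tested. Whether any of the 8 outside genes share a match with each other was not tested either, so they need not be separate sites. These are descriptions of small groups, and no element was tested.

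Levels of most members were higher in H6 than in I4 before doxycycline. Without it, the level was higher in H6 for 29 of 35 members in experiment N, with a median ratio of 1.17, and for 27 in experiment B, with a median of 1.17. For all genes of at least 1 RPKM the medians were 1.02 and 1.03, and 55.6% and 55.2% were higher in H6. With doxycycline the level was higher in H6 for 33 and 29 members, with median ratios of 1.29 and 1.24, against 55.1% and 54.4% of all genes and medians of 1.02 and 1.02. The 4 group means of H6 all lay above the 4 of I4 for 11 of 35 members (31.4%), against 8.89% of all genes of at least 1 RPKM, and these means carry no spread over wells. CREB3L1 is among the 11 and among the members higher in H6 in each count above. It passed the level of 1 RPKM only through H6, since its means in I4 were 0.366 to 0.818 RPKM. The levels of both clones come from separate comparisons of 1 table and carry no test.

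Within a clone, the doxycycline effect was called different between the experiments for 0 of 36 members in I4 and 0 of 36 in H6 by the same Wald test, against 0.0643% and 0.0383% of all genes. At an unadjusted p under 0.05 there were 4 in I4 and 1 in H6, and this comparison was added after the data were seen. The shares of all genes above are for adjusted p, and none is given for the unadjusted counts. Other genes of the ER, in 6 lists with 111 genes of which 107 had at least 1 RPKM, had a median difference that put H6 above I4 in each list in both experiments. Of the 111, in I4 10 rose (9.01%, against 7.18% of all genes) and 14 fell (12.6%, against 8.53%) in experiment N, and 5 rose (4.50%, against 7.46%) and 6 fell (5.41%, against 6.59%) in experiment B. In H6 14 rose (12.6%, against 6.57%) and 3 fell (2.70%, against 7.07%) in experiment N, and 7 rose (6.31%, against 3.63%) and 0 fell (against 3.93%) in experiment B, by the authors' q-values. The shares in I4 in experiment B lay below those of all genes. Genes of at least 1 RPKM, as 107 of the 111 are, were called more often, so all genes are a low background here. Either way, 22.9% of them were called in I4 and 20.3% in H6 in experiment N, and 19.1% and 10.3% in experiment B. Of the 10756 at that level, 1115 rose and 1352 fell in I4 in experiment N, shares near those of the lists. The other comparisons differed from the lists. In I4 in experiment B 1088 rose and 970 fell, both larger shares than in the lists. In H6 1051 rose and 1134 fell in experiment N, and 530 and 575 in experiment B. Against these the lists had a larger share that rose and a smaller share that fell. In all 4 comparisons 1 of the 111 was called (0.901%, against 3.69% of all genes), P4HA1, the catalytic subunit of collagen prolyl hydroxylase that pairs with P4HB. Its rise was 1.21-fold and 1.25-fold in I4 and 1.30-fold and 1.35-fold in H6 in the authors' deposited table. The clone difference was called for 0 of the 111 in either experiment by the Wald test, against 0.964% and 0.998% of all genes. A count of 0 is near that background. There were 7 at an unadjusted p under 0.05 in experiment N and 7 in experiment B, again with no share of all genes beside them.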

How the data were processed

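Poly(A)-selected RNA was sequenced from wells of 2 PC-3 clones, and groups were formed from the clone, experiment and doxycycline in the labels. The build was hg38, per the submitters' processing notes. Aligner, counter, annotation and test were not given in the sources used here. Each level was the authors' higher group mean on the RPKM scale; the file does not name the unit, which was read from single-read steps and from column sums of 283580 to 301832. The fold is the authors' deposited signed ratio, taken as doxycycline over none because PARG is above 1 in each of the 4 comparisons. The q-values are adjusted p-values made by the authors, by a method the file does not name.

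Folds were put on the log2 scale, and the lower mean is approximate where the authors' fold is not a plain ratio of the means. Genes with a q under 0.05 were called. For the clone difference, q-values were turned back to p by rank, as if made by the Benjamini-Hochberg method, and to a standard error with a two-sided normal. A q listed as 0 took the smallest p recovered, so its error is an upper bound, and genes tied at the highest q took the 90th percentile of 200 genes of like level. Errors so recovered depended on q: at 10 to 60 RPKM their median was 0.0711 to 0.0823 where q was under 0.05 and 0.107 to 0.112 where it was over 0.9, so the test is approximate. The script was tested on simulated data whose standard errors depended on level alone, so that run cannot bear on the dependence on q. Exon overlaps came from GENCODE 29, whose names 21376 of 21463 rows matched, and 19 members share exon bases with another gene. Python 3.11.15, pandas 2.3.3, numpy 2.4.6 and scipy 1.17.1 were used. The members and lists were chosen with earlier results of these data known. Named genes are PARG, the members, markers and up to 4 genes per list called in all 4 comparisons; genes outside these were chosen after their values were seen.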

Additional observations from a re-analysis of the deposited data

Results flagged for a closer look

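HSPA5 drew a closer look because the test of the difference between the clones itself was passed in both experiments. Its doxycycline effect in I4 minus that in H6 was -0.49 on the log2 scale in experiment N and -0.48 in experiment B, with adjusted p-values of 0.0114 and 0.00167 by the Wald test over all genes. It was the 1 member of 36 called in both, and the group means went up in H6 and down in I4 each time. With standard errors from genes of like level the adjusted p was 0.315 in experiment N and 0.0304 in experiment B.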

How the results depend on the processing

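Only centring on the median of all genes alters a log2 fold, so the other alternatives could not reverse a direction. Centring reversed none of the directions followed and changed no count by over 1.5 times. The members called in H6 in experiment N went from 10 to 6 at an adjusted p under 0.01, and those in I4 in experiment B from 6 to 3 with a fold of at least 1.2 as well. Members called in all 4 comparisons were 3, and 5 when clone H6 alone was asked. The clone difference in experiment N was called for 2 members, for 0 at an adjusted p under 0.01, for 7 with a t distribution of 4 degrees of freedom and for 0 with standard errors from genes of like level (chosen after seeing the data), where HSPA5 at -0.49 lost its call. In experiment B it was called for 1 member and for 5 with the t distribution. In both experiments the t distribution called 5 members, ERN1, HYOU1, PDIA4, HSPA5 and AGR2. The share of all genes called with the t distribution is not given here, so its counts have no background beside them. The t distribution used 4 degrees of freedom for every comparison and 8 for the difference, although H6 in experiment B, with 5 wells, has 3. These counts rest on how a standard error is read back from a q-value, which values per library would replace. No paired analysis was possible because the table used here holds no value per library, and for the same reason no replicate was left out in turn. The depth of 19.2 to 43.0 M reads leaves DERL3 unmeasured.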
